A study of Homo sapiens with 9 samples.

Results

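Merging the 3 deposited ATAC-seq region lists of T47D cells, with at least 1 bp shared, gave 97804 regions, and 4249 of them (4.34%) held a region called in hypoxic control cells and none called in normoxic control cells or in hypoxic cells with ZHX2 knocked down. These 4249 hypoxia-control-only regions were chosen by those calls, so their absence from the other lists is the rule and not a result. The hypoxic control list held 77451 regions, of which 6.44% were not called in normoxia, 25.0% were not called after ZHX2 knockdown and 5.49% were called in neither. The hypoxia-control-only regions were therefore 4249 of the 4984 hypoxic control regions that the normoxic list lacked, and the remaining 735 were also called after knockdown.

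T47D is an established luminal breast cancer line that carries the oestrogen receptor, grown here in RPMI medium with serum and transduced with lentiviral hairpins under drug selection. Nuclei were transposed with a Nextera enzyme and sequenced as paired ends for 9 samples in 3 groups of 3: control hairpin (shCtrl) in normoxia, control hairpin in hypoxia, and hairpin against ZHX2 (shZHX2) in hypoxia. Each group was represented by 1 list of regions, so no spread between samples could be computed, no p-value is given, and a difference between lists has no replicate check. Every group carried a lentiviral hairpin, shZHX2 cells in normoxia were not part of the comparison, and the labels name neither an oxygen level nor how long hypoxia lasted. The normoxic list held 90962 regions over 60.1 Mb, the hypoxic control list 77451 over 48.5 Mb and the shZHX2 list 62779 over 40.6 Mb, and the sequencing depth behind each is unknown. In bulk nuclei, more open DNA per cell and more cells with that DNA open cannot be told apart. Accessibility did not measure ZHX2 level, and the knockdown could not be checked from these lists. Of 30 luminal genes, 28 had a region within 1 kb of a gene end in each hypoxic list and 29 in the normoxic list. The same count was 6, 6 and 8 of 14 blood markers and 3, 3 and 4 of 12 stromal and endothelial markers, in the order hypoxic control, shZHX2 and normoxia. For liver and neuron markers it was 5 of 10 in each list.

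ATAC-seq marks DNA that a transposase can reach, which includes active promoters, enhancers and insulators where nucleosomes have been displaced. In low oxygen, hypoxia-inducible factors (HIF) escape degradation through VHL and bind short motifs near genes of glycolysis, angiogenesis and pH control, often at DNA that is already accessible. ZHX2 is a zinc finger and homeobox protein that VHL targets for degradation, and the series as a whole concerns its condensates and chromatin folding in breast cancer.

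Starts were analysed for the 3977 regions on chromosomes that the start table used here covers, and 36 of them touched a start window, defined as the 250 bases before and 50 bases after a gene's start in RefSeq on GRCh38.p14, and together they touched 42 windows of 38 genes. The sequences of 6 of these windows show what kind of DNA was involved, since no genome sequence was used for the regions away from starts. They are printed 5′ to 3′ on the gene's strand, with the bases that lie inside the hypoxia-control-only region in capitals and the rest of the window in lower case. SERPINE2, which encodes a secreted protease inhibitor (protease nexin), had the highest fold among protein-coding start windows, at 4.16. Its window is chr2:224031429-224031728 on the minus strand. The region lay inside the gene, 7525 bp from the nearer gene end, and the gene also had 4 normoxic and 4 shZHX2 regions assigned.
SERPINE2: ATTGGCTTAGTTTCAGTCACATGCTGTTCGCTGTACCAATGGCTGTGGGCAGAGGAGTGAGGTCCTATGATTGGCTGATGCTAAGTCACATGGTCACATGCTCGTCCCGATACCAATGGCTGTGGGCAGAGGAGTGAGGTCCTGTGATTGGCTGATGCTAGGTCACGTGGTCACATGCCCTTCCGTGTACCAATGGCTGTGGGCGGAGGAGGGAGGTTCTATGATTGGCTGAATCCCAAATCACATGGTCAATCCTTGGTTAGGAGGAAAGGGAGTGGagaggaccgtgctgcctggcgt
DNAH9 encodes an axonemal dynein heavy chain, and its window is chr17:11598220-11598519 on the plus strand, with a region of fold 3.48.
DNAH9: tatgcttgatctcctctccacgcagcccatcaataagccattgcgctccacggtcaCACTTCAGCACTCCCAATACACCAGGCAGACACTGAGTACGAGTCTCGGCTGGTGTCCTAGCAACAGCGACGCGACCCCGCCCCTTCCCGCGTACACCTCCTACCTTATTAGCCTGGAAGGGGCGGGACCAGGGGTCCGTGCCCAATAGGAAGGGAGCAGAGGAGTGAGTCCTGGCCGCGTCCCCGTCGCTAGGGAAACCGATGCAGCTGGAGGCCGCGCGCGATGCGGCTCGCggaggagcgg
OR9I1 encodes an olfactory receptor, and its window is chr11:58125481-58125780 on the minus strand, with a region of fold 3.30.
OR9I1: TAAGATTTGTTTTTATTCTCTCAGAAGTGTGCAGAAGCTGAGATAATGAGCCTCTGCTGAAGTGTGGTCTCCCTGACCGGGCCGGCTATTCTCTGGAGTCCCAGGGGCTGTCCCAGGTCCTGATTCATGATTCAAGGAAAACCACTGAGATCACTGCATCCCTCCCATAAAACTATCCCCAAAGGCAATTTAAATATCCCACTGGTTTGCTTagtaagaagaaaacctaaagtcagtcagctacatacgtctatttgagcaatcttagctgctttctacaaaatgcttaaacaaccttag
The other 3 windows belong to long non-coding RNAs (lncRNAs). PCSK6-AS1, at chr15:101334187-101334486 on the plus strand, had a region of fold 4.17.
PCSK6-AS1: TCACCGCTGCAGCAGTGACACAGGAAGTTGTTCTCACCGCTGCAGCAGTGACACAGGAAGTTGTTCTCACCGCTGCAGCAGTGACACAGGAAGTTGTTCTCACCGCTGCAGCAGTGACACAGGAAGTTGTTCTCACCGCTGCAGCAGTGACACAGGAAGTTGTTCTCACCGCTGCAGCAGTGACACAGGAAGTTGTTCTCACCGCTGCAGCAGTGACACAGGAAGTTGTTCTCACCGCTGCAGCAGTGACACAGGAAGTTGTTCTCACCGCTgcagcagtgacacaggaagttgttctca
LOC105376631, at chr11:36710941-36711240 on the minus strand, had the highest fold of all 42 windows, 4.86.
LOC105376631: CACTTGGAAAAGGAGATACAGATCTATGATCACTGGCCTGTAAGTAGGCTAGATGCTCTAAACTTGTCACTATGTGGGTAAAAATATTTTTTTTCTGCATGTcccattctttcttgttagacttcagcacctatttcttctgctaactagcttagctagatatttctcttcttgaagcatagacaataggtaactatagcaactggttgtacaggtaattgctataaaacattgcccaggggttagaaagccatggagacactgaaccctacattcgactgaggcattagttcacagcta
LOC105372622, at chr20:42018914-42019213 on the minus strand, lies in a stretch of 4 such regions beside PTPRT and had a region of fold 3.15.
LOC105372622: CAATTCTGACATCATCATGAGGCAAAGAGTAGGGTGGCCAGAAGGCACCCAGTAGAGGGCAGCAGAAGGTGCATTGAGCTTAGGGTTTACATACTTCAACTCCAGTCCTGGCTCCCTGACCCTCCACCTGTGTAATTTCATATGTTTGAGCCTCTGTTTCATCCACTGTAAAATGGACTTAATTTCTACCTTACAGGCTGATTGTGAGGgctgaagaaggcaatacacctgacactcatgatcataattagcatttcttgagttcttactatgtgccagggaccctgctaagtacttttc

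The printed windows differ in kind. The PCSK6-AS1 window is a tandem repeat: every base equals the base 33 positions before it (100%), and the region covered 272 of its 300 bases. In the SERPINE2 window 64.1% of bases equal the base 77 positions before, and it holds the letters CCAAT 7 times when both strands are read. CG pairs numbered 26 in the DNAH9 window, 9 in that of PCSK6-AS1, 8 in that of SERPINE2, 3 in that of OR9I1, 1 in that of LOC105376631 and 0 in that of LOC105372622. Of ACGTG and GCGTG, the letters at the core of HIF sites, 4 of the 6 windows held neither (PCSK6-AS1, LOC105376631, OR9I1 and LOC105372622). The DNAH9 window held GCGTG 1 time, read on the other strand and in the lower-case bases outside the region. Inside its region the SERPINE2 window held 1 palindromic CACGTG, which reads as ACGTG on either strand.

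Over all 42 windows the bases were poorer in G and C than those of starts called in all 3 lists. The median share of G and C was 52.7% (range 39.3 to 77.7), against 66.0% in start windows touched by a region called in all 3 lists, 55.3% in those touched by a normoxia-only region, 48.0% in those touched by no region and 58.7% in all 35116 windows. At least 10 CG pairs were present in 9 of the 42 windows (21.4%), against 89.3% of windows touched in all 3 lists and 22.6% of windows touched by no region. The genes were also of another kind: 31 of the 42 windows (73.8%, 95% Wilson interval 58.9 to 84.7) belonged to lncRNAs and 11 to protein-coding genes. The lncRNA share was 20.1% for windows touched in all 3 lists, 38.8% (33.7 to 44.2) for normoxia-only regions, 54.4% for windows touched by no region and 36.8% for all windows. Split by gene kind, the median share of G and C was 63.3% in the 11 protein-coding windows, against 62.3% in all protein-coding windows. In the 31 lncRNA windows it was 51%, against 50% in all lncRNA windows. Windows touched in all 3 lists stood at 66.3% for protein-coding genes and 64.7% for lncRNAs. Some windows share a region or a gene, as the 4 windows of LOC105372699 do. Intervals here and below cover counting error only, and regions are not replicates of a condition.

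**Figure D1:**
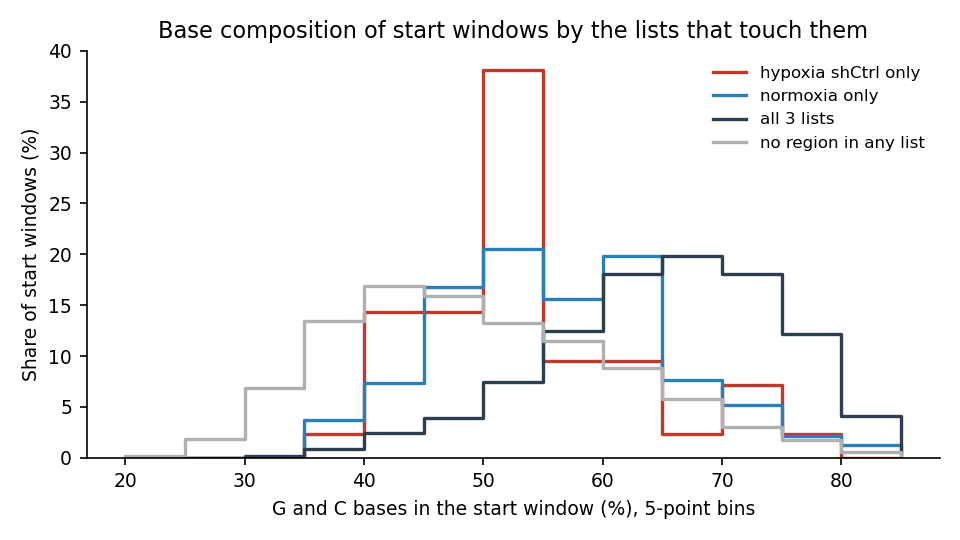
Share of G and C bases in start windows (x axis, percent, in 5-point bins) against the share of windows in each set (y axis, percent), for windows touched by a hypoxia-control-only region (42 windows), a normoxia-only region, a region of all 3 lists, or no region. The median of the hypoxia-control-only set was 52.7% and that of the set called in all 3 lists 66.0%.

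Short motifs were searched as letters on both strands of the whole windows, so a motif can lie outside the region. Over the 42 windows a median of 188.5 bases lay inside the region. Of the HIF core letters, ACGTG was present in 33.3% of the 42 windows (21 to 48.5), in 25.8% of those touched in all 3 lists and in 21.4% of all start windows, so the interval held both of the latter values. CACGTG, an E-box that contains the former letters, was present in 11.9%, against 9.44% and 7.26%. GCGTG, the other form of the HIF core, was present in 14.3%, against 51.3% in all 3 lists and 36.5% of all windows, and either form in 42.9% (29.1 to 57.8) against 63.1% and 48.4%. GGGCGG, the GC box read by SP factors, was present in 21.4%, against 70.3% in all 3 lists, 18.8% in windows touched by no region and 45.0% of all windows. TGANTCA, the AP-1 site, was in 11.9% (5.19 to 25), against 15.9% for normoxia-only regions, 11% of windows touched by no region and 7.71% of all windows. AGATAA, which factors of the GATA family read, was in 16.7% (8.32 to 30.6), against 16.6% of windows touched by no region and 10.3% of all windows. TGTTTAC, a forkhead site, and AACCNGTT, a grainyhead site, were each present in 1 of the 42 windows (2.38%), against 3.42% and 1.73% of all windows. CCAAT was in 50% (35.5 to 64.5), against 34.1% in all 3 lists, 35.1% of windows touched by no region and 34.6% of all windows. Its interval lay above those values, but windows that share a region or a gene were each counted. CCAAT was in every window of LOC105372699, which share a region, and in every window of LOC102724431, which share another. LOC105373487 and LOC442028, whose windows also share a region, both held it. The interval treats such windows as separate, so no excess is read from it. These are letters in windows and not measured binding.

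The hypoxia-control-only regions were weak and narrow within the list they came from. The fold enrichment over local background, its −log10 p and its −log10 q are the authors' values for each region, and all describe the signal that the rule used. The median fold was 3.05 (quartiles 2.78 and 3.33, range 1.33 to 24.8), against 4.98 for hypoxic control regions called in all 3 lists, 3.23 for those shared with normoxia alone and 3.13 for those shared with shZHX2 alone. The median width was 258 bp, against 552 bp, 313 bp and 270 bp for the same 3 classes. At the shortest width in the list, 200 bp, lay 390 of the regions (9.18%), and 187 (4.40%) were over 500 bp, whereas 56.4% of the regions called in all 3 lists were over 500 bp. When the hypoxic control list was ranked by −log10 q, 3488 of the 4249 (82.1%) lay in its weakest 25%, 36 in its upper 50% and 3 in its upper 25%. Along that ranking their share went from 22.7% of the weakest of 10 equal classes and 17.0% of the next to 4.25% of the fourth and 0.387% of the sixth.

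**Figure D2:**
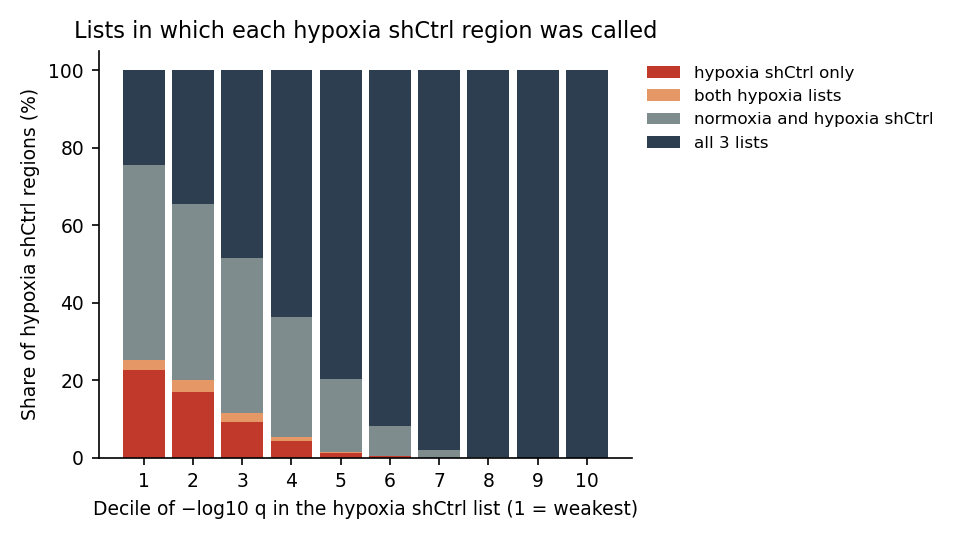
Hypoxic control regions in 10 equal classes of −log10 q (x axis, 1 is the weakest) and the share of each class by the lists in which the region was called (y axis, percent). Hypoxia-control-only regions made up 22.7% of the weakest class and 1.19% of the fifth, and regions called in all 3 lists filled nearly the whole of the strongest classes.

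Membership depended on where the authors' calling threshold fell. Every region in the list had a −log10 p above 10, and the lowest among the hypoxia-control-only regions was 10.2. After each list was limited to its 62779 regions of highest score, 3991 hypoxia-control-only regions were found, but only 1300 of the original 4249 (30.6%) were among them. At the edge of the rule, 1 region abutted a region of another list with no base between, 9 lay under 100 bp from one and 23 under 500 bp. On the other side of the rule, 8 hypoxic control regions shared under 10% of their length with the other lists and 500 shared under 50%, with a smallest overlap of 2 bp.

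**Figure D3:**
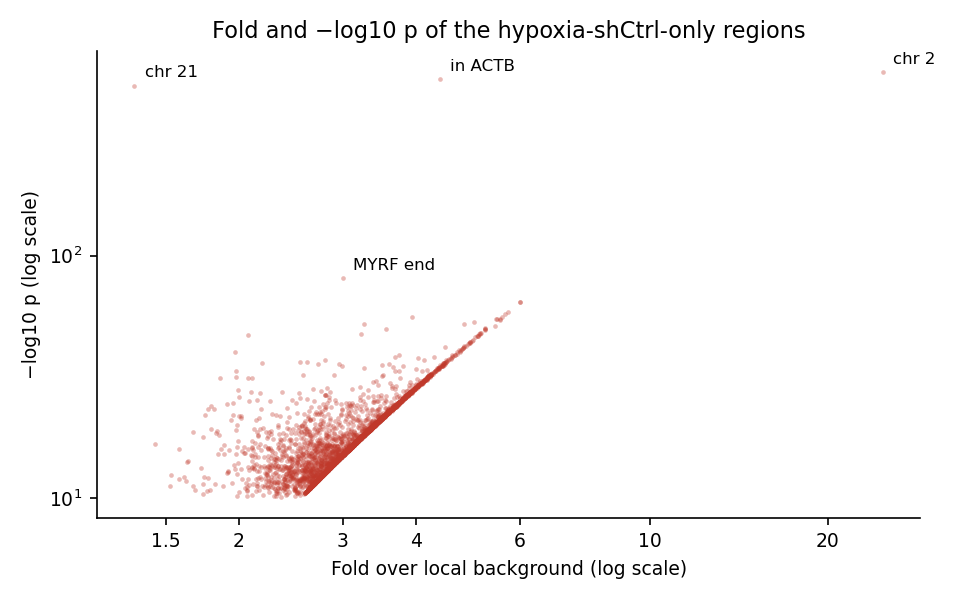
Fold over local background (x axis, log scale) against −log10 p (y axis, log scale), both the authors' values, with 1 point for each of the 4249 hypoxia-control-only regions. Most regions lie between folds of 2 and 4 on a rising band, and 4 labelled regions stand above it, 3 of them with −log10 p of 500.5 to 570.3.

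Position was not part of the rule, and most of these regions lay away from gene starts. Within a protein-coding gene lay 1786 (42.0%), and 146 (3.44%) lay within 1 kb of a gene end. Start windows and distances to starts were not analysed for chromosome 8, which held 272 of the regions, so values on starts rest on the other 3977, of which 36 touched a start window (0.905%, 0.655 to 1.25). With each of the 3977 placed once, in the order start window, gene end, protein-coding gene, lncRNA gene, the last class, outside all of these, held 43.2% (41.7 to 44.8). It held 29.2% of hypoxic control regions called in all 3 lists, 40.5% of those shared with normoxia alone, 35.6% of those shared with shZHX2 alone, 38.9% of normoxia-only regions and 33.8% (31.8 to 36) of shZHX2-only regions. The median distance to the nearest start was 34.6 kb (quartiles 12.7 and 82.2), against 16 kb for regions in all 3 lists, 29.1 kb for those shared with normoxia alone, 29.7 kb for normoxia-only regions and 33.7 kb for shZHX2-only regions. More than 100 kb from any start lay 20.1%, against 18.9% of shZHX2-only regions and 16.2% of those shared with normoxia alone.

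The same shares were taken within classes of −log10 q, set after the values were seen, so that regions of like strength could be compared. Under 12, the share within a protein-coding gene was 46.8% (43.7 to 49.9) for hypoxia-control-only regions and 48.5% for regions shared with normoxia alone. At 16 to 22 it was 38.7% (35.9 to 41.6) against 46.4%, and at 22 or more it was 35% (31.0 to 39.2) against 43.3% (41.9 to 44.7). Regions called in all 3 lists stood at 51.6% in the weakest class and 60.1% in the strongest. Among hypoxia-control-only regions the share inside genes was thus lower in the stronger classes, and the intervals of the weakest and strongest classes did not overlap. The same held for regions shared with normoxia alone, whose weakest class stood at 48.5% (46.4 to 50.6). Start windows were touched by 1.18%, 0.870%, 0.853% and 0.611% of hypoxia-control-only regions from the weakest class to the strongest, which is 11, 13, 9 and 3 regions, against 3.05%, 2.08%, 2.66% and 2.28% of regions shared with normoxia alone. Of all regions shared with shZHX2 alone, 9 of 696 touched one (1.29%, 0.682 to 2.44). That interval overlapped the one of all hypoxia-control-only regions (0.655 to 1.25), so a low share at starts was not particular to them. With lists of equal length, the share within a protein-coding gene was 42.1% (40.6 to 43.7), against 43.7% for regions shared with normoxia alone and 53.5% for shZHX2-only regions, and the share touching a start window was 1.46% (1.12 to 1.89) against 2.61% and 2.86%. With lists of equal length, then, the intervals of these regions and of those shared with normoxia alone overlapped for genes (42.4 to 45.1 for the latter) and did not overlap for start windows (2.21 to 3.09). For regions shared with shZHX2 alone, the start-window share at equal length was 3.02% (2.43 to 3.75).

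**Figure D4:**
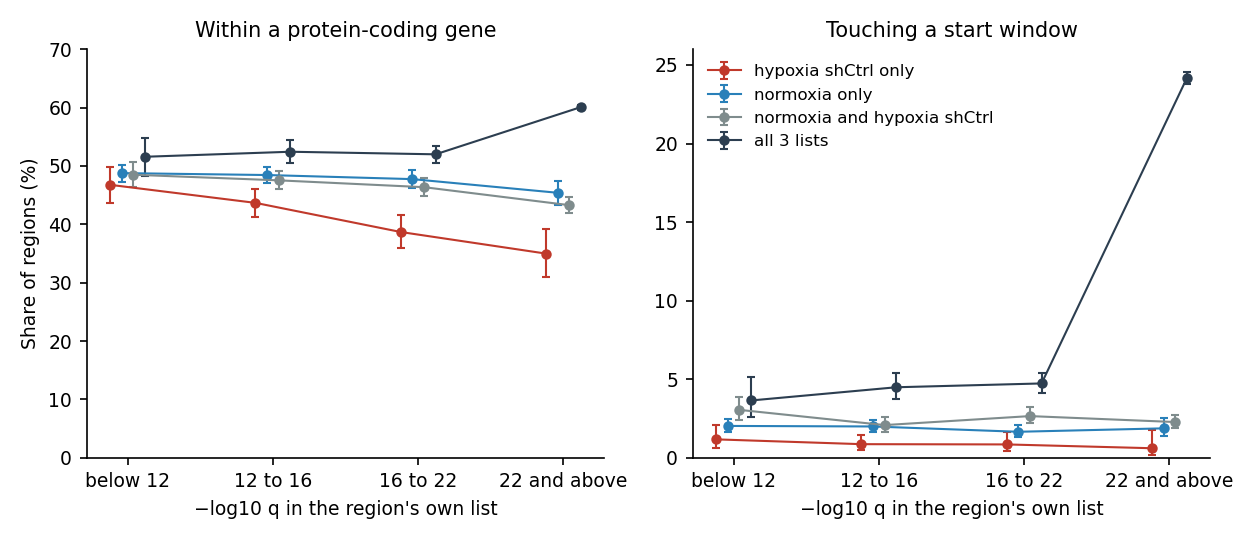
Share of regions (y axis, percent) within a protein-coding gene (left) and touching a start window (right) in 4 classes of −log10 q (x axis), with 95% Wilson intervals, by the lists in which the region was called; normoxia-only regions are classed by −log10 q in the normoxic list. Hypoxia-control-only regions in genes go from 46.8% to 35% and stay at or under 1.18% at start windows, where chromosome 8 was left out.

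Most hypoxia-control-only regions had a region of another list in the neighbourhood. The nearest one lay at a median of 8.25 kb, within 1 kb for 204 regions (4.80%), within 10 kb for 2350 (55.3%) and beyond 100 kb for 119 (2.80%), up to 592 kb. The nearest normoxic region was closer (median 8.51 kb) than the nearest shZHX2 region (median 13.5 kb), beside lists of 90962 and 62779 regions. The nearest other hypoxic control region lay more than 50 kb away for 11.2% (10.3 to 12.2), against 6.98% of regions in all 3 lists, 8.57% of those shared with normoxia alone and 9.66% (7.73 to 12) of those shared with shZHX2 alone, whose interval overlapped. At −log10 q under 12 the order turned, with 6.37% against 7.23% of regions shared with normoxia alone. Within 10 kb of each other lay 281 of the regions (6.61%, 5.91 to 7.4).

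Along the genome 3649 regions (85.9%) stood singly between regions of other classes, 235 pairs followed each other directly, and 39 runs held 3 or more. These runs were picked after their values were seen. The longest held 7 regions over 666 kb at chr16:26396851-27062902, with folds of 2.81 to 4.02. The gap to the next region was 558 kb on its left and 4.28 kb on its right. The last of the 7 regions touched the start window of the lncRNA LOC105371154, and the protein-coding end nearest to the run was that of C16orf82, 4025 bp away. A run of 5 at chr3:117322927-117609549 lay 877440 bp from the nearest protein-coding end, that of LSAMP, a neuronal cell adhesion gene. Another run of 5, chr3:184907947-185065334, covered VPS8, a subunit of the endosomal CORVET tethering complex. A run of 4 lay at PTPRT, described below. In windows of 200 kb, the most regions lay at chr10:42086431-42286460, with 8 of 12 hypoxic control regions. Next came chr22:11837877-12030436, with 7 of 24. Neither span held a protein-coding gene, and how well reads can be placed there was not tested.

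The share of hypoxic control regions that were hypoxia-control-only varied by chromosome. It ran from 2.79% on chromosome 19 (2.28 to 3.41) to 7.09% on chromosome 8 (6.32 to 7.94), with 6.69% on chromosome 12 and 6.56% on chromosome 11. Chromosome 19 is rich in genes and promoters. Among hypoxic control regions of −log10 q under 22, of which 16.8% were hypoxia-control-only on all chromosomes together, the share ran from 13.2% on chromosome 19 to 19.4% on chromosome 8 (17.3 to 21.7).

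**Figure D5:**
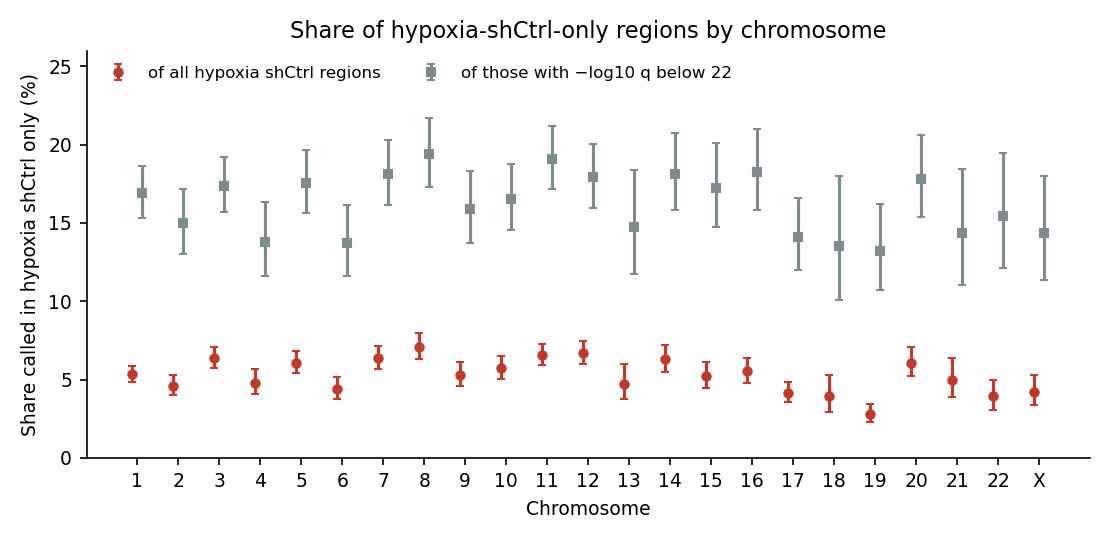
Share of hypoxic control regions called in no other list (y axis, percent, with 95% Wilson intervals) by chromosome (x axis), over all hypoxic control regions (circles) and over those of −log10 q under 22 (squares). Circles run from 2.79% on chromosome 19 to 7.09% on chromosome 8, and squares from 13.2% to 19.4% on the same chromosomes.

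Regions were assigned to the protein-coding gene with the nearest end within 50 kb, which placed 2353 of the 4249 (55.4%). They fell to 2091 of 20037 genes, so 10.4% of protein-coding genes had at least 1. Of these genes 1866 had 1 region, 190 had 2 and 35 had 3 or more. Among the 54522 assigned hypoxic control regions 4.32% were hypoxia-control-only, and among the assigned regions of −log10 q under 22 the share was 15.5%. The shares below are read against these values. Nearness to a gene end is a label and not a measured regulatory link.

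Genes of the hypoxia response carried 10 of these regions, near 8 of 40 listed genes. That was 10 of their 161 hypoxic control regions (6.21%, 3.41 to 11.1), against 4.32% of all assigned regions. Among weak regions it was 8 of 48 (16.7%), close to the 15.5% of all assigned weak regions. PDK1, the kinase that limits pyruvate entry into mitochondria, had 3, all inside the gene, beside 6 hypoxic control, 4 normoxic and 3 shZHX2 regions assigned to it. They lay at chr2:172686348-172686631 (fold 4.19), chr2:172688985-172689194 (fold 3.13) and chr2:172693129-172693519 (fold 3.88), 17.5, 15.0 and 10.6 kb from the nearest normoxic region. From the nearer end of PDK1 they lay 37681, 35118 and 30793 bp away, in 1 run of 7.17 kb, so none was assigned to it within 20 kb.

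The other 7 hypoxia-response genes had 1 region each. At VEGFA, the angiogenic growth factor, the region at chr6:43773354-43773629 had a fold of 1.75 and lay inside the gene, 1.16 kb from a normoxic region and 1.15 kb from an shZHX2 region. At SLC2A1, the glucose transporter GLUT1, it lay 8655 bp from the gene at chr1:42916396-42916698 (fold 3.33). At ANGPTL4, a secreted inhibitor of lipoprotein lipase, it lay 4953 bp from a gene end at chr19:8379323-8379584 (fold 3.37). At EGLN3, an oxygen-sensing prolyl hydroxylase that HIF induces, it lay 8848 bp from a gene end at chr14:33915176-33915379 (fold 2.94). At JMJD6, a member of the Jumonji oxygenase family, chr17:76714927-76715188 (fold 2.74) was the only hypoxic control region assigned, and 0 regions of the other lists were, although the nearest normoxic and shZHX2 regions lay 3.31 and 3.33 kb away. PLOD2, a collagen lysyl hydroxylase, had a region 48116 bp away at chr3:146021074-146021324 (fold 3.08). LOX, which cross-links collagen, had one 32654 bp away at chr5:122030342-122030541 (fold 3.18), inside the neighbouring gene SRFBP1.

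The list of HIF subunits, VHL, EGLN2, HIF1AN and the 3 ZHX genes had none. EGLN3, also an oxygen sensor, was counted above. The 11 genes of this list held 50 hypoxic control regions and 0 were hypoxia-control-only, which allows a share of up to 6% and so does not set the list apart from the 4.32% of all assigned regions.

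Receptor-type tyrosine phosphatases, which remove phosphate from tyrosines at the cell surface and at cell contacts, had 15 regions near 8 of 20 genes. That was 14.0% (8.68 to 21.9) of their 107 hypoxic control regions, and 12 of 36 weak ones (33.3%, 20.2 to 49.7). This list, like all the gene lists used here, was chosen with earlier results of these data known, so the counts of each list are a description. PTPRT led with 4 regions, beside 7 hypoxic control, 3 normoxic and 2 shZHX2 regions assigned to it. They lay at chr20:41998582-41999241 (fold 2.59), chr20:42019005-42019300 (fold 3.15, in the LOC105372622 window printed above), chr20:42024697-42025008 (fold 3.73) and, inside the gene, chr20:42041171-42041412 (fold 4.52). No other list had a region in this 42.8 kb stretch. From the first of the 4 the nearest normoxic region was 41.9 kb and the nearest shZHX2 region 109 kb away. From the last of the 4 these distances were 84.4 and 152 kb. PTPRJ had 3 regions beside 16 hypoxic control, 15 normoxic and 10 shZHX2 regions, and PTPRR and PTPRU had 2 each. At PTPRN2 and PTPRQ the regions lay within 1 kb of regions called in both other lists.

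Genes of synapses and neuronal adhesion had 14 regions near 9 of 25 genes, 12.4% (7.53 to 19.7) of their 113 hypoxic control regions and 14 of 43 weak ones (32.6%, 20.5 to 47.5). CAMK2B, a subunit of the calcium- and calmodulin-dependent kinase II, had 4, with folds of 2.41 to 2.81, beside 11 hypoxic control, 9 normoxic and 5 shZHX2 regions. NFASC, an adhesion protein of the axon initial segment, had 3 (folds 2.74 to 2.92). GRIK2, a kainate receptor subunit, had 1 at chr6:102114510-102114731 (fold 3.66), 89.7 kb from the nearest normoxic region.

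ETS transcription factors had 9 regions near 7 of 19 genes, 8.49% (4.53 to 15.4) of their 106 and 8 of 37 weak ones (21.6%, 11.4 to 37.2, which holds the 15.5% of all assigned weak regions). ETS1 had 2, the stronger at chr11:128555637-128555981 (fold 4.60), and ETV5 had 2, of folds 2.56 and 2.99. Receptor tyrosine kinases had 6 of 125 (4.80%), with 2 at DDR2, a collagen receptor, and 1 each at EPHB2, NTRK2, PDGFRB and ROR2. The NTRK2 region, at chr9:85069468-85069728 (fold 3.40), lay 7.42 kb from a normoxic region and 115 kb from an shZHX2 region.

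Genes that mark the luminal state had 5 of 183 (2.73%, 1.17 to 6.24), with 2 at TRPS1 and 1 each at ELF3, GATA3 and GRHL2. Mesenchymal, invasion and basal genes had 6 of 117 (5.13%, 2.37 to 10.7), 1 each at COL5A1, SERPINE2, SNAI2, SPARC, TGFBI and TWIST2. Among them the regions with the highest folds were those at SERPINE2 (4.16) and TWIST2 (3.75), a mesenchymal transcription factor. AP-1 and stress factors had 2 of 83 (2.41%), at DDIT3 and KLF6. Cell cycle and replication genes had 5 of 60 (8.33%, 3.61 to 18.1), at CDC6, CDT1, MCM5, PLK1 and RRM2. Of their weak regions it was 4 of 10 (40%, 16.8 to 68.7), beside 15.5% of all assigned weak regions. With 10 weak regions in 1 of 15 lists, that share is a description. The PLK1 region lay inside another gene, ERN2, and the MCM5 region lay 16022 bp outside its gene. Chromatin architecture genes had 2 of 62 (3.23%), at PDS5B and YY1, and housekeeping genes 2 of 60 (3.33%), at ACTB and RPL13A. The interval of each of these 6 lists held the 4.32% of all assigned regions. With assignment within 20 kb, the genes with a region numbered 5 in place of 8 for the hypoxia response, 5 in place of 8 for phosphatases, 4 in place of 7 for ETS factors, 2 in place of 5 for kinases, 3 in place of 6 for mesenchymal genes, 1 in place of 4 for luminal genes and 0 in place of 2 for chromatin architecture. Among markers of cells other than T47D, SLAMF1 had 3 of the 24 hypoxic control regions of 14 blood markers, PDGFRB and TEK had 1 each of the 39 of 12 stromal and endothelial markers, and CYP2C19 had 3 of the 25 of 10 liver and neuron markers.

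Some genes had most of their hypoxic control regions in no other list. CYP2C19, a drug-metabolising cytochrome P450 of the liver, had 4 hypoxic control regions and 3 were hypoxia-control-only, against 1 normoxic and 0 shZHX2 regions. They lay inside the gene at chr10:94765024-94765336 (fold 2.90), chr10:94785850-94786049 (fold 3.11) and chr10:94801989-94802272 (fold 3.76), each more than 27 kb from a normoxic region and 135 to 162 kb from an shZHX2 region. LPA, which encodes apolipoprotein(a), had 3 of 5, with folds of 3.07 to 3.47, against 2 normoxic and 1 shZHX2 regions. SLAMF1, a receptor of lymphocytes, had 3 of 4, against 3 normoxic and 1 shZHX2 regions, the strongest at chr1:160618792-160619167 (fold 4.12) inside the gene, while another lay 0.813 kb from a normoxic and 0.804 kb from an shZHX2 region. At PTPRJ, NFASC and RBM19 the 3 hypoxia-control-only regions stood among 14 to 16 hypoxic control regions.

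The region of highest fold stood apart from the rest. At chr2:90173338-90173537 a 200 bp region outside protein-coding and lncRNA genes had a fold of 24.8 and a −log10 p of 570.3. The nearest region of either other list was 64.3 kb away. Genes of other kinds were not checked. The next folds were 6 at chr21:41303014-41303399, 843 bp from an end of FAM3B, a secreted cytokine-like protein, and 6 at chr13:81226863-81227231 in LINC00564. The remaining 7 of the 10 highest ran from 5.46 to 5.73, and only 2 of these lay inside a protein-coding gene, chr9:29126845-29127207 in LINGO2 and chrX:38627697-38628021 in TSPAN7. Outside such genes, chr10:50963968-50964387 lay 26501 bp from PRKG1 and chr3:190677833-190678257 lay 18083 bp from IL1RAP. Beyond the 50 kb limit lay chr15:81456899-81457272, 82686 bp from TMC3, chr6:55951051-55951492, 75461 bp from BMP5, and chr3:178349143-178349607, which lay in the lncRNA LOC105374235, 186829 bp from KCNMB2. The widest region, 1952 bp, lay at chr8:2247364-2249315, and the third widest, 1212 bp, at chr3:49700544-49701755 (RNF123, a ubiquitin ligase subunit).

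Another region far from the others in −log10 p was picked after its values were seen. At ACTB, the cytoskeletal actin gene, the region chr7:5528508-5528749 had a fold of 4.39 and a −log10 p of 533.4. In hypoxic control cells the next region began at 5529622 with a fold of 3.36. The normoxic list had 1 region of 3511 bp from 5529587 (fold 2.78), and the shZHX2 list 1 of 1496 bp from 5529587 (fold 4.31). All 3 lists thus had accessible DNA at ACTB, and the hypoxia-control-only region lay 837 bp from the regions of both other lists.

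Of the 1562 microRNA hairpins in RefSeq on GRCh38.p14, 3 were touched by these regions and 170 by the whole hypoxic control list. The hypoxia-control-only regions made up 5.49% of that list. Mature sequences of the 3 hairpins are printed to identify them, with the seed (bases 2 to 8) in capitals. The 5 seeds are all different. They were picked after the values were seen, and accessibility does not measure the microRNA. MIR8052 at chr11:130666735-130666803 lay in a region of fold 3.40.
hsa-miR-8052: cGGGACUGuagagggcaugagc
MIR323B at chr14:101056219-101056300, in a large imprinted microRNA cluster, lay in a region of fold 3.05, 14.9 kb from the nearest normoxic region.
hsa-miR-323b-5p: aGGUUGUCcguggugaguucgca
hsa-miR-323b-3p: cCCAAUACacggucgaccucuu
MIR10396B at chr21:8436324-8436374 lay in the region of lowest fold, 1.33, whose −log10 p was 500.5, with regions of both other lists within 1 kb.
hsa-miR-10396b-5p: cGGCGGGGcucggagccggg
hsa-miR-10396b-3p: gGCCCCGGgcccucgaccggac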

How the data were processed

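ATAC-seq was measured in 9 T47D samples, and the deposited data used here are 3 region lists, 1 for each group of 3 samples. FastQC, Bowtie2, SAMtools, MACS2 and hg38 are named per the submitters' processing notes. Settings, and the way in which 3 samples gave 1 list, are not given in the sources used here. Each region carries the authors' score, their fold enrichment (a ratio over local background), and −log10 p and −log10 q values deposited with it. Replicates of a group could not be compared. Depth per sample was unknown.

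Lists were merged where regions shared at least 1 bp. Genes, start windows and microRNAs came from RefSeq (GRCh38.p14, coordinates as in hg38). A gene end is within 1 kb of either limit of a gene. Shares have 95% Wilson intervals. Scripts used Python 3.11.15, numpy 2.4.6, pandas 2.3.3 and bedtools 2.31.1, and the interval code was tested on simulated data.

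The naming rule took the 10 regions of highest fold, the 5 widest, the 10 of highest fold at a protein-coding gene end or start, genes with 3 or more regions, the regions of hypoxia-response and oxygen-sensing genes, and up to 3 genes of each other list. Of these, those that best show a result are printed. Genes beyond this rule in the other lists, the motifs, the runs, the microRNAs and the classes of −log10 q were chosen after values were seen. The regions and lists were chosen with earlier results of these data known. Alternatives changed the threshold, the overlap, the gene-end width, the assignment distance and the chromosomes used. Sequence of regions away from gene starts, and starts on chromosome 8, were not analysed here.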

Additional observations from a re-analysis of the deposited data

How the results depend on the processing

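Each list rests on 1 file for 3 samples, so no sample could be left out and no count has a replicate check. No paired analysis was possible because each group is 1 list with no values per sample. Of 37 alternatives to 7 results, 20 stayed within the counting error or within 1.5 times the count, and 17 moved. The count was 4249 as deposited, 3991 with lists of equal length, 4749 when under 50% coverage counted as absent, 4177 on autosomes and 35 with a score above the median, the one setting that moved it (36 by −log10 q itself, which the score cuts to a whole number). The main values of the shares were 3.44% at a gene end, 4.80% within 1 kb of another list, 6.61% within 10 kb of each other, 42.0% within a protein-coding gene and 0.905% at a start window, and the median fold was 3.05. With lists of equal length, 2.81% lay within 1 kb, 4.96% within 10 kb, 1.46% touched a start window and the fold was 3.53. Above the median score, with 35 regions, 5.71% lay at a gene end, 8.57% within 1 kb, 0% within 10 kb of each other and 0% at a start window (0 of 35 allows up to 8.57%), 31.4% within a gene, and the fold was 5.13. With under 50% coverage, 14.8% lay within 1 kb and 7.88% within 10 kb. With another list within 1 kb counted as shared, 0% lay within 1 kb by construction and the fold was 3.06. A gene-end width of 500 bp gave 1.95% and 2500 bp gave 7.51%. Assigning within 20 kb in place of 50 kb left 1427 genes with a region in place of 2091, and 9 with 3 or more in place of 35. Of the 15 gene lists, 8 moved by over 1.5 times, all to fewer genes. The 2 shares within a gene and at start windows were added to these alternatives after seeing the data.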
